A study of Mus musculus with 20 samples.

Results

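The electroneutral sodium and chloride exchangers of the distal colon (DC) were followed as 7 genes among the 26619 rows of the count table, picked by symbol as members of 1 transport route. They were the sodium and hydrogen exchanger genes Slc9a2, Slc9a3 and Slc9a8, the anion exchanger genes Slc26a2, Slc26a3 and Slc26a6, and the scaffold gene Pdzk1. All 7 Ensembl IDs were found in the table, and all 7 passed the filter on low counts that left 17893 genes to test. The C57BL/6 mice were put on the Total Western Diet (TWD), a rodent diet built to resemble what people in the United States eat, at 3 weeks of age and stayed on it for 6 weeks. For 3 further weeks they ate either the TWD alone (0% RPS) or the TWD with 2, 5 or 10% resistant potato starch (RPS, raw potato starch in the labels), with 5 mice on each diet. The control mice thus ate the same Western diet as the others, and no chow-fed group was analysed here. Each mouse gave 1 stranded mRNA library of whole DC tissue, and the mouse codes in the labels are all different, so a replicate is an animal.

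The libraries held 18.4 to 34.97 megacounts, and depth was lower at 10% RPS, with means of 32.8 ± 1.35 megacounts (SD, n = 5) at 0% RPS and 24.3 ± 3.42 megacounts at 10% RPS. In 3 mice the diet in the description differs from the diet in the treatment label: RS10_748 (2% in the description, 10% in the treatment label), RS10_717 (5% and 2%) and RS10_725 (10% and 5%). The description was followed. In sample order the treatment label changes after every 5 samples, while the description does not. In the column order of the counts RS10_748 stands between RS10_712 and RS10_715, both at 2% RPS by either label. Which label is right was not tested. Libraries RS10_721 (5% RPS) and RS10_784 (10% RPS) carried pancreatic acinar transcripts, whose 10 genes summed to 5538 and 501 CPM (counts for each megacount of a library, after TMM scaling) against at most 19.4 CPM in the other 18 mice. RS10_721 also had the lowest score of posterior Hox genes, which mark the hind end of the gut (mean log2 CPM 4.11, against 5.16 to 5.77 in the other mice). Of 10 small intestinal genes, Sis, Lct, Alpi, Apoa4 and Fabp1 averaged under 1 CPM over the 20 mice. The other 5 were above it, for a sum of 246 to 328 CPM over all 10. The posterior gene Hoxb13 was at 446 to 580 CPM on 0% RPS and 386 to 439 CPM on 10% RPS. These ranges did not overlap, and 1.15% of all genes were lower in this way. By its treatment label RS10_748 (517 CPM) is a 10% RPS mouse, and the ranges then overlap. Of the 7 posterior Hox genes tested, Hoxb13 was the one with a falling trend in edgeR (0.95% of all genes). At an unadjusted edgeR p under 0.05, 2 of the 7 fell (19.1% of all genes in either direction). In whole tissue, fewer cells of a type and less RNA per cell cannot be told apart.

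Electroneutral absorption takes up sodium and chloride together with no net movement of charge. In the surface epithelium of the colon a sodium and hydrogen exchanger of the brush border works beside a chloride and bicarbonate exchanger, and water follows the salt. Slc9a3 encodes NHE3 and Slc9a2 encodes NHE2, the brush border sodium and hydrogen exchangers, while Slc9a8 encodes NHE8, found at the apical side and on internal membranes. Slc26a3 encodes DRA, the main chloride and bicarbonate exchanger of the colon, whose loss in people causes congenital chloride diarrhea. Slc26a6 encodes PAT1, a related exchanger best known from the small intestine, Slc26a2 encodes a sulfate transporter, and PDZK1 is a scaffold that binds the tails of these transporters under the brush border. The other route of sodium uptake in this segment is the epithelial sodium channel, which carries charge.

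Slc9a3 (ENSMUSG00000036123) lies on chr13:74269360-74317561 and Slc26a3 (ENSMUSG00000001225) on chr12:31440870-31523916, both on the plus strand of GRCm39. Their start regions are shown because these were the genes that moved most with the diet, and the 2 differ in base composition. The 250 bases before the RefSeq start had a GC content of 67.6% for Slc9a3 and 38.8% for Slc26a3, against a median of 52.4% over all RefSeq mouse promoters of this length. For Slc9a3 only the 30 bases from -90 to -61 (chr13:74269442-74269471) are printed. They lie before the RefSeq start but inside the annotated gene, in the 5′ UTR of a GENCODE transcript that starts at 74269360. For Slc26a3 the whole window, chr12:31487968-31488217, is printed. It too lies inside the annotated gene, which begins at 31440870, just before the start of the Ensembl canonical transcript at 31488218. Capitals mark letters that match a motif, searched on both strands:
Slc9a3: gttCACGTGtgcgcagcggGGGCGGgaagg
Slc26a3: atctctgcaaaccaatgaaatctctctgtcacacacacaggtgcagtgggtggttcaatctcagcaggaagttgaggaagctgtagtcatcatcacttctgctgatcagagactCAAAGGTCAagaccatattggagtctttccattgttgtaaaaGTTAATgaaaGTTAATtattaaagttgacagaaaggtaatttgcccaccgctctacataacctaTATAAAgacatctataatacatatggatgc

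In the Slc9a3 window the E-box CACGTG stood at -87, and 6.02% of 32841 RefSeq promoter windows hold it. The GC box GGGCGG stood at -71 and -16, and on the other strand at -58, and 32.7% of the windows hold it. In the Slc26a3 window CAAAGGTCA, an HNF4A-type element, stood at -136 (0.426% of windows), the HNF1 half-site GTTAAT at -94 and -84 (6.43%), and the TATA box TATAAA at -30 (12.4%). None of the 3 other motifs searched (the D-box TTATGTAA, CAAAGTCCA and the CDX2-type TTTATNG) was found in either window. The motifs were picked after the sequences had been seen, and a match is a description of letters only.

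Slc26a3 was the most abundant exchanger transcript, and its level stood apart at 10% RPS. It was at 1241, 919, 945, 1221 and 1185 CPM in the 5 mice on 0% RPS. It was at 910, 1051, 971, 1251 and 1059 CPM on 2% RPS and at 1076, 1263, 1143, 1216 and 1103 CPM on 5% RPS. On 10% RPS it was at 1732, 1544, 1600, 1782 and 1506 CPM. By the description labels, every mouse on 10% RPS was above every mouse on the other 3 diets. The 0, 2 and 5% groups overlapped one another. Of the genes tested, 1.13% were higher in all 5 mice on 10% RPS than in all controls, 0.995% against 2% and 0.442% against 5% RPS. The share for all 3 diets at once was not counted. The treatment labels put RS10_748 (1059 CPM) on 10% RPS and RS10_725 (1732 CPM) on 5% RPS, and the groups then overlap. Diet means were 1102 ± 157, 1048 ± 129, 1160 ± 78.0 and 1633 ± 119 CPM (SD, n = 5 each).

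A gene was called between diets at a Benjamini-Hochberg adjusted p of at most 0.05 and a fold change of at least 1.5. At 10% against 2% RPS Slc26a3 was upregulated 1.56-fold (log2 value 0.64 ± 0.10, SE; edgeR adjusted p = 0.0154). It had the smallest p of all genes in that comparison, and was the only exchanger gene called (0.0224% of all genes were called). DESeq2 called 2 there, Slc26a3 and Slc9a3 (0.503% of all genes), and without the 3 mice of disagreeing labels Slc9a3 was not called (DESeq2 adjusted p = 0.116). Against 0% RPS the log2 fold change at 10% was 0.57 ± 0.10 (95% interval 0.36 to 0.77), which is 1.48-fold. The edgeR adjusted p was 0.0155, but the fold was just short of the threshold, so Slc26a3 was not called there. Without the 3 mice of disagreeing labels the edgeR adjusted p was 0.0786. Against 5% RPS it was 0.49 ± 0.10, with an unadjusted p of 4.7e-05 and an edgeR adjusted p of 0.423. DESeq2 gave the 10% against 5% difference an adjusted p of 0.00768, at 1.41-fold in the edgeR fit and likewise below the fold threshold. Without the 3 mice of disagreeing labels that DESeq2 adjusted p was 0.412, and with the treatment labels the log2 fold change was 0.22. The 5% and 2% diets did not separate from 0% RPS, at log2 fold changes of 0.07 ± 0.10 and -0.07 ± 0.10.

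Slc26a3 also passed the test of any difference among the 4 diets (edgeR adjusted p = 0.0186), the only exchanger gene to do so (0.0727% of all genes passed), and DESeq2 gave 2 (2.09% of all genes). It rose with the RPS level as a number, by 0.061 ± 0.010 log2 units for each 1% RPS (edgeR adjusted p = 0.00423), one of 2 exchanger genes with a trend. Both were higher with more RPS and none was lower, while 2.1% of all genes had a trend, 1.15% higher and 0.95% lower. At an unadjusted p under 0.05 the trend held 3 exchanger genes (19.1% of all genes), and DESeq2 gave 3 (5.6% of all genes). The call against 2% RPS was lost without RS10_709, RS10_748, RS10_725 or RS10_729 in turn, at edgeR adjusted p of 0.0644 to 0.0867. The log2 fold changes were then 0.60 to 0.65, beside 0.64 with all mice. Without the 3 mice of disagreeing labels the log2 fold change against 2% RPS was 0.63 (adjusted p = 0.267) and the trend 0.059 (adjusted p = 0.0270), and with the treatment labels in place of the descriptions they were 0.51 (adjusted p = 0.735) and 0.050 (adjusted p = 0.168).

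Slc9a3 showed the widest range of the 7 genes, 125-fold from the lowest to the highest mouse, against 1.42- to 2.00-fold in the other 6. It was at 5.44, 14.8, 17.8, 1.49 and 1.63 CPM on 0% RPS, and at 8.20, 14.8, 20.1, 10.8 and 12.5 CPM on 2% RPS. It was at 61.1, 81.6, 47.9, 187 and 8.08 CPM on 5% RPS, and at 79.8, 23.0, 133, 71.0 and 148 CPM on 10% RPS. By the description labels, all 5 mice on 10% RPS and 4 of 5 on 5% RPS were above the highest control. RS10_724 on 5% RPS was among the control values. RS10_748, on 10% RPS by its treatment label, was at 12.5 CPM. The lowest values, in RS10_707 and RS10_708, still rested on 50 and 54 reads. Diet means were 8.23 ± 7.61, 13.3 ± 4.50, 77.1 ± 66.9 and 90.9 ± 50.4 CPM (SD, n = 5 each), so the SD was nearly as large as the mean at 0 and 5% RPS.

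Slc9a3 rose with the RPS level, by 0.375 ± 0.089 log2 units for each 1% RPS (SE; edgeR adjusted p = 0.0372). Between diets its differences were large but not called: the log2 fold change was 3.47 ± 0.79 at 10% against 0% RPS (11.1-fold, 95% interval 1.80 to 5.15, edgeR adjusted p = 0.0821). At 5% against 0% RPS it was 3.23 ± 0.78 (9.40-fold, edgeR adjusted p = 0.325), and at 2% against 0% RPS it was 0.70 ± 0.76 with an interval from -0.90 to 2.30. DESeq2 called Slc9a3 at 10% against 0% RPS with an adjusted p of 8.9e-04 and at 5% against 0% RPS with 0.0107, and the latter was not called without RS10_721 (adjusted p = 0.129), without the 3 mice of disagreeing labels (0.0778) or with the treatment labels (0.129). The 10% and 5% diets did not separate, at 0.24 ± 0.71. At 10% against 0% RPS edgeR thus called 0 of the 7 exchanger genes (0.0391% of all genes were called), while 3 had an unadjusted p under 0.05 (15.2% of all genes) and DESeq2 called 1 (1.25% of all genes).

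Without RS10_721, the mouse with the highest Slc9a3 level and the acinar transcripts, the trend was 0.36 log2 units for each 1% RPS (edgeR adjusted p = 0.0138) and the log2 fold change at 5% against 0% RPS was 2.60. Without RS10_784, the other such mouse, the trend was 0.375 (edgeR adjusted p = 0.102). The trend was no longer called when any 1 of 11 mice was left out (RS10_701, RS10_707, RS10_708, RS10_709, RS10_712, RS10_716, RS10_748, RS10_725, RS10_729, RS10_731 and RS10_784). The edgeR adjusted p was then 0.0524 to 0.102, at slopes of 0.35 to 0.40 beside 0.375 with all mice. Without RS10_727, the lowest mouse on 10% RPS, Slc9a3 was called at 10% against 0% RPS (log2 fold change 3.72, edgeR adjusted p = 0.0321). Without the 3 mice of disagreeing labels the trend was 0.39 (edgeR adjusted p = 0.0883). Slc9a3 shares 380 exon bases with Exoc3 on the other strand, and Exoc3 was at 61.6 ± 3.69 CPM on 0% RPS and 64.8 ± 4.48 CPM on 10% RPS.

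**Figure D1:**
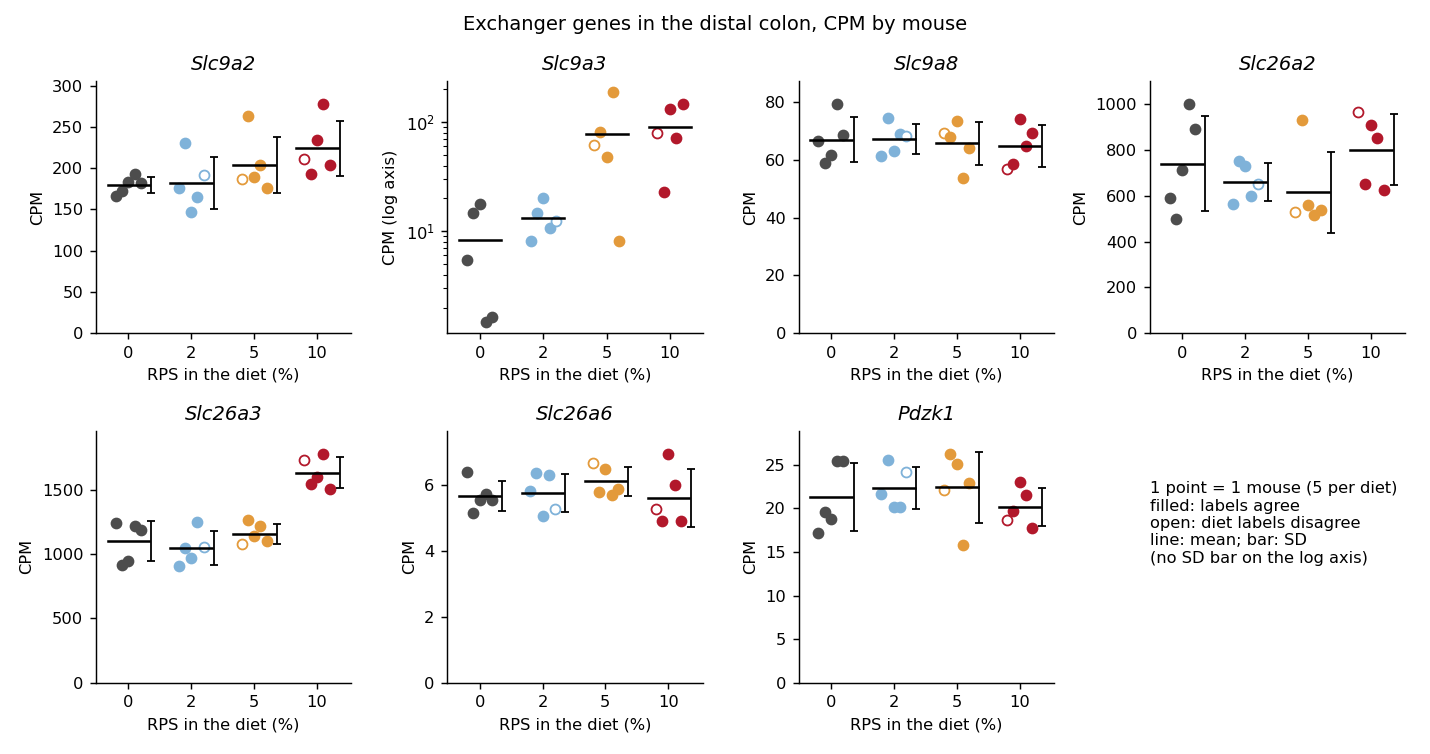
CPM of each exchanger gene (vertical axis, logarithmic for Slc9a3) in each mouse by RPS level (horizontal axis, % of the diet), with lines for means, bars for SD except on the logarithmic axis, and open points for the 3 mice of disagreeing labels. Grouped by the description labels, all 5 mice on 10% RPS lie above all other mice for Slc26a3, and Slc9a3 runs from 1.49 to 187 CPM.

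Slc9a2 (ENSMUSG00000026062, chr1:40719734-40808433) showed a smaller shift than Slc9a3. It was at 167, 173, 183, 192 and 183 CPM on 0% RPS and at 176, 231, 147, 165 and 191 CPM on 2% RPS. On 5% RPS it was at 187, 263, 190, 204 and 176 CPM, and on 10% RPS at 211, 193, 235, 278 and 204 CPM. The 10% and 0% RPS groups did not overlap, though the lowest mouse on 10% RPS (192.8 CPM) and the highest control (192.5 CPM) were nearly level. RS10_748, on 10% RPS by its treatment label, was below that control at 191 CPM. The log2 fold change at 10% against 0% RPS was 0.32 ± 0.12 (1.25-fold, unadjusted p = 0.0131, edgeR adjusted p = 0.204). The trend was 0.034 ± 0.011 for each 1% RPS (edgeR adjusted p = 0.0828), and DESeq2 put it past the threshold at 0.0437. That DESeq2 value was 0.0710 without the 3 mice of disagreeing labels and 0.132 with the treatment labels.

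By the description labels, Slc9a2, Slc9a3 and Slc26a3 were thus higher in all 5 mice on 10% RPS than in all 5 controls. This pattern was seen in 1.13% of the genes tested. No exchanger gene was lower in all 5 mice (1.15% of genes). At 10% against 2% RPS the groups were apart in this way for Slc9a3 and Slc26a3 (0.995% of genes higher, 1.12% lower), and at 10% against 5% RPS for Slc26a3 (0.442% higher, 0.598% lower). With the treatment labels all of these separations are lost, since RS10_748 then counts as 10% RPS and RS10_725 as 5% RPS. RS10_748 was at 191.4, 12.5 and 1059 CPM for Slc9a2, Slc9a3 and Slc26a3, below the highest control of each. No exchanger gene was apart at 5% against 0% RPS (0.464% of genes higher, 0.576% lower), at 2% against 0% RPS (0.112% and 0.129%) or at 5% against 2% RPS (0.481% and 0.475%). Over the 7 genes the median log2 fold change at 10% against 0% RPS was 0.12, beside a median of -0.01 over all genes tested.

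Slc9a8 (ENSMUSG00000039463, chr2:167263472-167318922) kept a narrow range. It was at 59.0 to 79.4 CPM on 0% RPS, 61.5 to 74.6 on 2%, 53.9 to 73.4 on 5% and 56.8 to 74.3 on 10% RPS. The 4 ranges overlapped throughout. The log2 fold change at 10% against 0% RPS was -0.05 ± 0.09, with a 95% interval from -0.24 to 0.14, so changes of 1.5-fold lie outside it in both directions.

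Slc26a2 (ENSMUSG00000034320) varied between mice more than between diets. It was at 590, 500, 714, 1001 and 891 CPM on 0% RPS and at 566, 754, 731.1, 597 and 653 CPM on 2% RPS. It was at 530, 930, 560, 517 and 537 CPM on 5% RPS and at 968, 650, 911, 854 and 624 CPM on 10% RPS. Mouse RS10_718 stood far above the other 4 on 5% RPS, and every pair of diets overlapped. The log2 fold change at 10% against 0% RPS was 0.12 ± 0.19 (95% interval -0.28 to 0.51). At 10% against 5% RPS it was 0.38 ± 0.19 (unadjusted p = 0.0583, edgeR adjusted p = 0.861).

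Slc26a6 (ENSMUSG00000023259, chr9:108730289-108742118) was low and even, between 4.90 and 6.95 CPM in all 20 mice, with 90 to 226 reads. Its log2 fold change at 10% against 0% RPS was -0.02 ± 0.12 (95% interval -0.26 to 0.23). Pdzk1 (ENSMUSG00000038298, chr3:96736600-96778242) was at 17.1 to 25.5 CPM on 0% RPS, 20.1 to 25.6 on 2%, 15.8 to 26.3 on 5% and 17.7 to 23.0 on 10% RPS. Its log2 fold change at 10% against 0% RPS was -0.08 ± 0.13 (95% interval -0.35 to 0.19). Pdzk1 shares 1333 exon bases with Gpr89 on the other strand, at 53.0 ± 3.38 CPM on 0% RPS and 54.1 ± 5.01 CPM on 10% RPS. Neither the 5% nor the 2% diet had a called exchanger gene against 0% RPS in edgeR, nor had 10% against 5% RPS or 5% against 2% RPS, and no gene of the whole table was called in any of these 4 comparisons (0.0% each). At an unadjusted p under 0.05 the 5% against 0% RPS comparison held 1 exchanger gene (9.19% of all genes) and 2% against 0% RPS held 0 (1.41%). There were 1 at 10% against 5% RPS (5.82%) and 1 at 5% against 2% RPS (6.53%). DESeq2 called 1 exchanger gene at 5% against 0% RPS (0.195% of all genes) and 0 in the other 3 comparisons (0.00386% of all genes in each).

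**Figure D2:**
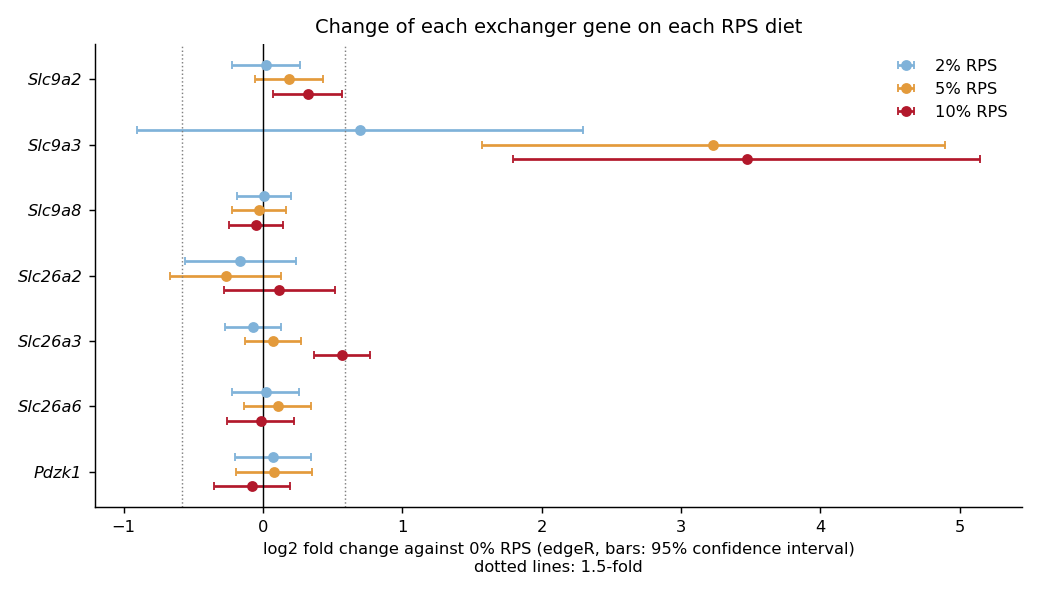
Log2 fold change against 0% RPS (horizontal axis) of the 7 exchanger genes on 2, 5 and 10% RPS, with 95% confidence intervals from the edgeR fit and dotted lines at 1.5-fold. The Slc26a3 interval at 10% RPS, 0.36 to 0.77, is narrow and above 0, while that of Slc9a3 is wide, 1.80 to 5.15.

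The genes were compared with one another on CPM divided by the length of their exons in kilobases. At 0% RPS Slc26a3 led with 173 ± 24.7 CPM per kb, followed by Slc26a2 (59.7 ± 16.7) and Slc9a2 (25.16 ± 1.401). Slc9a8 (5.20 ± 0.611) and Pdzk1 (5.07 ± 0.930) came next and did not differ beyond their spread. Slc9a3 (1.08 ± 0.996) and Slc26a6 (0.9748 ± 0.0784) were last, and their spreads overlapped as well. The order was the same when the longest coding transcript gave the length, though Slc9a8 (14.3 ± 1.68) and Pdzk1 (6.81 ± 1.25) were then apart.

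At 10% RPS the Slc9a3 mean was 11.9 ± 6.59 CPM per kb, above the means of Slc9a8 (5.02 ± 0.565) and Pdzk1 (4.79 ± 0.513). With the longest coding transcript as length these were 17.8 ± 9.84, 13.8 ± 1.56 and 6.44 ± 0.690. Slc9a3 and Slc9a8 then did not differ beyond their spread. The shares that follow used the exon length only. Within the summed CPM per kb of the 3 sodium and hydrogen exchanger genes, Slc9a3 made up 3.42% ± 3.10 at 0% RPS, 5.46% ± 2.24 at 2%, 20.6% ± 14.1 at 5% and 23.4% ± 10.9 at 10% RPS. Slc9a2 remained the largest part at every level, with 80.0% ± 1.59 at 0% RPS and 66.0% ± 10.1 at 10% RPS. The sum itself was 31.4 ± 1.65 CPM per kb at 0% RPS and 48.3 ± 8.86 at 10% RPS. Among the 3 anion exchanger genes Slc26a3 held 74.3% ± 4.32 of the summed CPM per kb at 0% RPS and 79.7% ± 2.41 at 10% RPS, and Slc26a6 held at most 0.538% in any mouse.

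**Figure D3:**
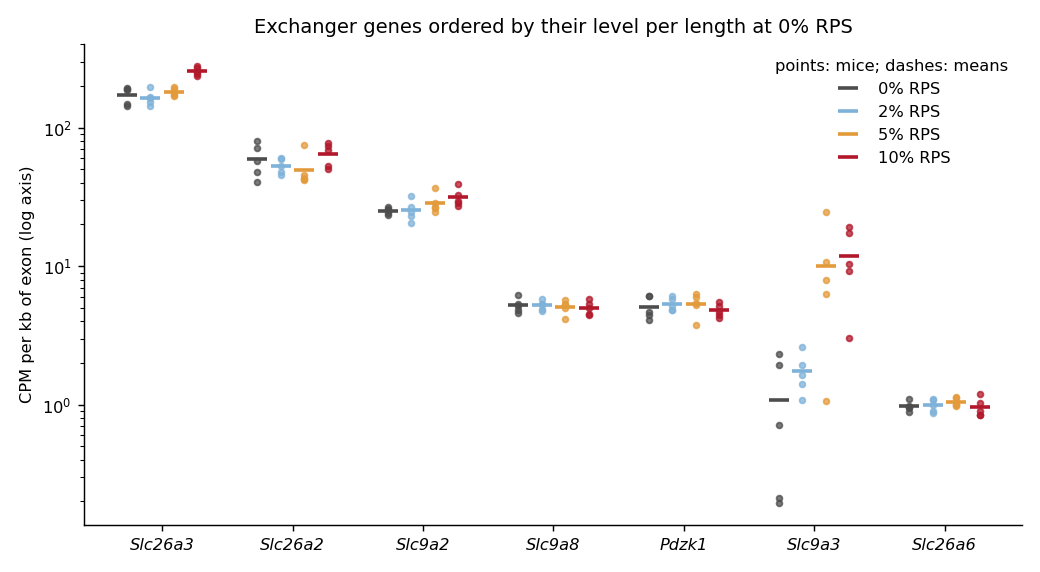
CPM per kb of exon (vertical axis, logarithmic) of the 7 exchanger genes, ordered by their mean at 0% RPS, with a point for each mouse and a dash for each diet mean. Slc9a3 moves from the level of Slc26a6 (means of 1.08 and 0.9748 at 0% RPS) to a mean of 11.9 at 10% RPS.

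The genes whose levels ran most like those of Slc9a3 were sought by Pearson correlation of log2 CPM over the 20 mice among 15225 genes. They were Mgat4c (r = 0.97), a glycosyltransferase gene, the surface colonocyte keratin Krt20 (0.93), 1810065E05Rik (0.93), the zinc importer Slc39a4 (0.92) and the water channel Aqp4 (0.91). After each diet's mean was taken out these were 0.92, 0.85, 0.86, 0.86 and 0.82, so they ran together within diets too. Mean Mgat4c was 22.9, 31.5, 76.1 and 97.0 CPM on 0, 2, 5 and 10% RPS, and mean Aqp4 was 53.8, 69.5, 163 and 164 CPM. For Slc26a3 the nearest genes were the protease gene Adam15 (r = 0.84), the cytochrome P450 gene Cyp2d9 (0.83), Gm15848 (0.82), the brush border cadherin Cdhr2 (0.79) and the carboxylesterase Ces2e (0.76). Without the diet means these fell to 0.23, 0.59, 0.53, 0.32 and 0.46. Slc9a3 and Slc26a3 themselves had r = 0.44, and -0.26 without the diet means. These are descriptions over mice that share diets, and the top genes were picked for being high.

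The other genes of the pathway were counted in lists, none of which had a call by edgeR at 10% against 0% RPS (0.0391% of all genes). DESeq2 called Scnn1b, Scnn1g and Cdx2 there (1.25% of all genes). For the trend the shares over all genes were 1.15% higher and 0.95% lower in edgeR, 19.1% at an unadjusted edgeR p under 0.05, and 5.6% in DESeq2. Of 15 tested scaffolds and regulators, 2 rose with the RPS level and 1 fell, and DESeq2 gave the same 3. Nherf1, the scaffold that tethers NHE3 to ezrin, was at 189 ± 15.0 CPM on 0% RPS and 267 ± 58.7 CPM on 10% RPS (trend 0.055 ± 0.012 for each 1% RPS, edgeR adjusted p = 0.0239). Chp1, an obligate partner of sodium and hydrogen exchangers, went from 305 ± 16.1 to 389 ± 31.8 CPM (edgeR adjusted p = 0.0185). All 5 mice on 10% RPS were above all controls for both genes, as in 1.13% of all genes. Nherf2, a related scaffold, went from 37.8 ± 5.33 to 27.4 ± 4.50 CPM, and its groups overlapped (edgeR adjusted p = 0.0306). The 2 most abundant of this list per kb, the guanylin gene Guca2a and the ezrin gene Ezr, were at 224 ± 97.7 and 962 ± 255 CPM on 0% RPS and at 344 ± 87.9 and 1049 ± 115 CPM on 10% RPS.

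Of 13 partner ion transporter genes, 0 rose and 2 fell with the RPS level, the same 2 that DESeq2 called. Both encode subunits of the epithelial sodium channel. Scnn1b was at 39.2 ± 12.5 CPM on 0% RPS and 13.6 ± 5.77 CPM on 10% RPS (trend -0.15 ± 0.03, edgeR adjusted p = 0.0241). Scnn1g was at 43.7 ± 19.2 and 10.3 ± 8.31 CPM (trend -0.21 ± 0.05, edgeR adjusted p = 0.0410). In both genes the lowest of all 20 mice was RS10_721 on 5% RPS, at 7.30 and 1.90 CPM, the mouse with the highest Slc9a3 level. The 10% and 0% RPS groups overlapped in both genes through RS10_727, at 23.8 and 24.1 CPM. Atp1b1, a beta subunit gene of the sodium pump, was at 1349 ± 175 CPM on 0% RPS and 1376 ± 122 CPM on 10% RPS.

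Of 7 other Slc9 genes and 5 other Slc26 genes tested, edgeR and DESeq2 both gave 0 trends, with 1 and 3 at an unadjusted p under 0.05 in edgeR. Of 12 transcription factor genes linked to exchanger promoters, edgeR gave 0 trends and DESeq2 gave 2, while 3 had an unadjusted edgeR p under 0.05. The most abundant per kb were Klf4 (662 ± 86.5 and 834 ± 119 CPM on 0 and 10% RPS) and Hnf4a (817 ± 77.7 and 915 ± 116 CPM).

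Markers of surface colonocytes, the cells that carry these exchangers, rose in part. Of 10 markers 5 rose with the RPS level in edgeR (Aqp8, Car4, Ceacam20, Krt20 and Ms4a8a) and 0 fell, against 1.15% and 0.95% of all genes. At 10% against 0% RPS edgeR called 1 of the 10, Car4, which was higher (0.0391% of all genes were called). At an unadjusted edgeR p under 0.05, 5 were higher and 0 lower there (15.2% of all genes). At 5% against 0% RPS 3 of the 10 were higher and 1 lower at an unadjusted edgeR p under 0.05 (9.19% of all genes). The summed level of the 10 markers was 4608 to 6682 CPM on 0% RPS, 4759 to 6180 on 2%, 5506 to 6816 on 5% and 6440 to 7537 on 10% RPS. Every marker averaged above 1 CPM. With the mean log2 CPM of these markers as a covariate, the Slc9a3 log2 fold change at 10% against 0% RPS was 1.39 in place of 3.47 (unadjusted p = 0.131, edgeR) and its trend 0.11 in place of 0.37. The Slc26a3 value was 0.56 in place of 0.57 (unadjusted p = 5.2e-04), with an edgeR adjusted p of 0.9996, and 0 genes of the whole table were called in that fit. The marker score itself was 8.17 ± 0.19 on 0% RPS and 8.51 ± 0.10 on 10% RPS, so diet and score were not independent in this fit.

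The epithelium as a whole moved less than its surface markers, with a score of 10.16 ± 0.11 on 0% RPS and 10.29 ± 0.12 on 10% RPS. With that score as a covariate the log2 fold changes at 10% against 0% RPS were 2.93 for Slc9a3 and 0.57 for Slc26a3, and the Slc9a3 trend was 0.27 (edgeR adjusted p = 0.172). The posterior Hox score was 5.47 ± 0.20 on 0% RPS and 5.26 ± 0.09 on 10% RPS, and as a covariate it left 3.09 for Slc9a3 and 0.56 for Slc26a3. Goblet cell markers summed to 8818 to 13304 CPM on 0% RPS and 9476 to 17780 CPM on 10% RPS, and their score was 8.20 ± 0.21 and 8.59 ± 0.26. With the goblet score as a covariate, added after the data were seen, the log2 fold changes at 10% against 0% RPS were 2.28 for Slc9a3 and 0.57 for Slc26a3, and the trends were 0.21 (edgeR adjusted p = 0.140) and 0.065 (0.0193). Over the 20 mice Slc9a3 had r = 0.85 with the goblet score and 0.82 with the surface colonocyte score, and 0.84 and 0.76 without the diet means. With the posterior Hox score it had r = -0.64, and -0.62 without the diet means. With the surface colonocyte score Slc26a3 had r = 0.63 and Slc9a2 0.51, and 0.01 and 0.15 without the diet means. Pdzk1 had -0.43 both with and without them. Slc9a8, Slc26a2 and Slc26a6 had r = -0.19, 0.22 and -0.05 with that score. These scores share libraries with the exchanger genes and are given as descriptions. By edgeR 0 of 10 goblet, 9 crypt base, 10 smooth muscle, 11 nerve and glia, 10 immune and 15 clock genes tested had a trend, with 4, 0, 0, 4, 2 and 1 at an unadjusted p under 0.05, against 19.1% of all genes. Of 10 squamous genes of the anal canal, Krt5, Krt13, Krt4, Krt6a, Trp63 and Dsc3 averaged under 1 CPM, and all 10 summed to 4.58 to 14.1 CPM on 0% RPS and 8.67 to 21.5 CPM on 10% RPS. Of the 7 tested, 0 had a trend in edgeR, and 3 were higher at an unadjusted p under 0.05, and their part in the exchanger results was not tested.

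**Figure D4:**
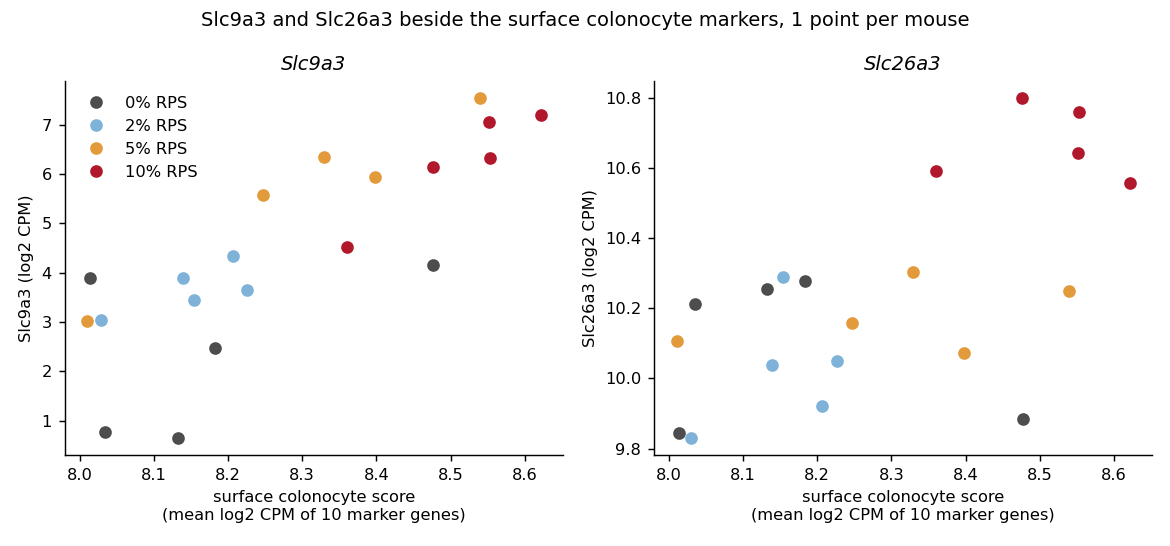
Slc9a3 (left) and Slc26a3 (right) in log2 CPM (vertical axes) beside the mean log2 CPM of 10 surface colonocyte markers (horizontal axes), with a point for each of 20 mice coloured by RPS level. Slc9a3 climbs with the marker score, as it did with the goblet score. For Slc26a3 the 5 mice on 10% RPS by the description labels form a separate upper group.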

How the data were processed

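Whole DC tissue from 20 mice, 5 on each diet, was sequenced with a stranded mRNA kit. Per the study's methods, the authors trimmed on base quality, dropped ambiguous reads, mapped what was left to GRCm39 in the CLC Genomics Workbench and deposited raw read counts per Ensembl gene. The strand setting of the counting is not given in the sources used here. Symbols and exon lengths came from GENCODE M39 (26338 of 26619 IDs matched). Promoter windows came from a RefSeq table of build GRCm38.p6 (5 of the 7 genes have one), and the 2 printed were each found exactly once in GRCm39, whose coordinates are given.

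Groups followed the description label. Counts were filtered with filterByExpr (minimum count 10) and then scaled by TMM. They were fitted with edgeR 4.0.16 (robust quasi-likelihood test) in R 4.3.3, with 1 fit over 4 diets and another on RPS percent. P-values were adjusted over 17893 genes. Diet contrasts also needed 1.5-fold, while the trend and the test over all diets did not. SE and intervals came from the F statistics. DESeq2 1.42.0 and limma 3.58.1 were alternatives. The study's methods used DESeq2 with the same thresholds. The code was tested on simulated data. Same-diet libraries differed by 9.10 to 62.9 chi-square units per degree of freedom, so no pair on the same diet was a duplicate. Pairs across diets were not compared.

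The named genes were the 7 exchanger genes, every called gene of the pathway lists with up to 2 of their most abundant genes per kb (some are not reported here), and the 5 genes most like Slc9a3 and Slc26a3. The exchanger genes and lists were chosen with earlier results of these data known.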

Additional observations from a re-analysis of the deposited data

Results flagged for a closer look

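A single value stood out within its diet. Slc26a2 in mouse RS10_718 on 5% RPS was at 929.9 CPM, and the next mouse on that diet was at 560.0 CPM, a gap of 0.90 of the group's whole range, which is beyond Dixon's 95% critical value for 5 samples. Over the 28 groups of a gene and a diet that were examined, 1.4 such values are expected by chance, and 1 was found.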

How the results depend on the processing

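No paired analysis was possible because every mouse number occurs on 1 diet only. The trend kept its direction for Slc9a3 and Slc26a3 in all 20 fits that left out 1 mouse, at 0.35 to 0.42 and 0.056 to 0.066 log2 units for each 1% RPS, and in the 17 other alternatives, at 0.11 to 0.40 and 0.050 to 0.065. With 1 mouse left out, the exchanger genes called numbered 0 to 2 at 10% against 0% RPS, 0 to 1 at 10% against 2% RPS, 0 to 1 for any diet difference and 1 to 3 for the trend. The call for any diet difference was lost without RS10_725, RS10_729, RS10_731 or RS10_784, and Slc26a3 was called at 10% against 0% RPS without RS10_701, RS10_707, RS10_708, RS10_727 or RS10_784. DESeq2 and edgeR's likelihood ratio test each called 1 exchanger gene at 10% against 0% RPS, 1 at 5% against 0% RPS and 2 for any diet difference. DESeq2 called 2 at 10% against 2% RPS, also without RS10_721, an alternative added after the data were seen, as were the other DESeq2 subsets and the surface colonocyte, posterior Hox and goblet covariates. Without RS10_721 or without the 3 mice of disagreeing labels DESeq2 called 1 at 10% against 0% RPS, and with the treatment labels it called 1 there and 0 at 10% against 2% RPS. In edgeR the treatment labels left 0 calls at 10% against 2% RPS, for any diet and for the trend; leaving out the 3 mice, or an epithelium or goblet covariate, left 0, 0 and 1; the surface colonocyte covariate left 0, 0 and 0. A posterior Hox covariate left 0 at 10% against 2% RPS. Dbp, one of the 15 clock genes, ran from 3.76 to 114 CPM over the 20 mice. Its means were 55.8 ± 40.5 CPM on 0% RPS and 28.3 ± 23.3 CPM on 10% RPS (SD). A Dbp covariate gave 1 at 10% against 0% RPS. It exchanged the trend of Slc9a3 (edgeR adjusted p = 0.0501) for that of Slc9a2 (0.0330). With no filter on low counts the trend had 1. The cause of these shifts was not tested. Among all genes DESeq2 called 211 of 16886 at 10% against 0% RPS, and edgeR 7 of 17893.

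Reversals concerned values near 0 and no called result. At 10% against 0% RPS, Slc26a2 was -0.0017 with the treatment labels; Slc9a8 was 0.0039 without the 3 mice, 0.054 with Dbp, 0.0044 with posterior Hox, 0.024 with goblet, 0.0084 in DESeq2 with the treatment labels and 0.0019 in DESeq2 without the 3 mice. Slc26a6 was 0.015 without the 3 mice in both tools, 0.054 with Dbp and 0.0018 with goblet. Pdzk1 was 0.080 with epithelium, 0.060 with Dbp, 0.14 with surface colonocytes, 0.044 with posterior Hox, 0.062 with goblet and 0.0064 in DESeq2 with the treatment labels. For the trend, Slc9a8 was 0.0032 with Dbp, 0.00051 with posterior Hox and 0.0016 with goblet. Slc26a6 was 0.00061 in DESeq2, 0.00011 with RLE size factors, 0.0011 without the 3 mice, 0.0063 with Dbp, 0.00060 in DESeq2 without RS10_721 and 0.0015 in DESeq2 without the 3 mice. Pdzk1 was 0.0043 with epithelium, 0.0031 with Dbp, 0.016 with surface colonocytes, 0.0029 with posterior Hox and 0.0018 with goblet. With 1 mouse left out, Slc9a8 ran from -0.10 to 0.023 and Slc26a6 from -0.10 to 0.035 at 10% against 0% RPS, and the Slc26a6 trend from -0.0084 to 0.0049. The effect of depth was not tested. Slc9a3 rested on 50 reads in its lowest library and Slc26a6 on 90.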
